A study of Homo sapiens with 4 samples.

Results

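Expression of the ZNF genes that lie outside chromosome 19 was compared between the human malignant glioma line GBM8401 and a temozolomide-resistant line raised from it. The drug, temozolomide (TMZ), alkylates DNA and is given against glioblastoma. The members are the protein-coding genes whose symbol is ZNF followed by digits alone, on any chromosome but 19, with a deposited value of at least 10 in at least 2 libraries. Of 234 such genes, 205 met the minimum, 23 were above 0 but below it, and 6 were listed at 0 in all 4 libraries. They are 205 of the 16132 genes that could be tested. They were chosen by their name, position and deposited level, with earlier results of these data known. The difference between the lines was no part of the rule, but the minimum admitted ZNF648 through its parental values alone.

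The study holds 2 libraries of untreated parental cells and 2 of the resistant line, which was kept in medium with 200 µM TMZ for 140 days. All cells were grown in RPMI1640 with fetal bovine serum. The labels call the replicates biological but name no separate derivations, so the p-values measure the spread between cultures of 1 resistant line and its parent. The deposited values are scaled fragment numbers per gene, not divided by gene length, and each library's values summed to between 23163310 and 25832511. The glioma markers VIM, CD44, NES, SOX9, EGFR and OLIG2 were present in all libraries. NES was 2.09-fold lower in the resistant line, SOX9 1.62-fold, VIM 1.53-fold and CD44 1.39-fold, and EGFR and OLIG2 were not called. GFAP reached at most 2.87, S100B at most 4.25 and SOX2 at most 10.5. Of the markers of other cell types, the leukocyte gene PTPRC was 62.1 to 92.7. Of 2 endothelial markers, CDH5 fell, from 286 and 404 to 158 and 120, and PECAM1 was at 0.25 on the log2 scale (adjusted p = 0.428). Of 2 neuronal markers, RBFOX3 rose by 1.58 and SNAP25 was at -0.07 (adjusted p = 0.879). The fibroblast genes COL1A1 (3051 to 4170), COL1A2 and DCN and the epithelial genes CDH1 and EPCAM were present and not called. Their part in the results was not tested.

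Zinc finger proteins of the C2H2 type fold short loops around a zinc ion, and strings of such fingers read DNA, one finger after the other. Many carry a KRAB domain at their start. This domain binds the corepressor TRIM28 (KAP1), which brings in the histone methyltransferase SETDB1 and HP1 proteins and silences transposable elements and genes near them. KRAB zinc finger genes arose by repeated duplication and often sit in clusters of neighbours. ZNF genes without KRAB are of mixed descent and include activators, developmental regulators, chromatin adaptors and RNA-binding proteins.

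The 205 genes moved in both directions. In the resistant line 34 were higher (16.6%) and 28 lower (13.7%) by limma at an adjusted p under 0.05, and 143 were not called. Over all tested genes 16.2% were higher and 20.9% lower, so the share of rises was near the background. The median log2 fold change was 0.04, with quartiles of -0.20 and 0.32, against -0.02 for all tested genes and -0.04 for the 13313 protein-coding ones. Both resistant libraries lay above both parental ones for 80 members (39.0%) and below them for 63 (30.7%). Of all tested genes 32.2% were above and 36.4% below. The called changes reached 2-fold in 10 rises and 4 falls. The 28 falls and these 4 include ZNF648, which passed the minimum through the parental libraries alone. Levels, as the mean over the 4 libraries, ran from 9.01 to 6747 with a median of 360. Leaving out a resistant library lowered the counts: 17 higher and 12 lower without replicate 1, and 20 and 22 without replicate 2. Scaled to library totals, 62 were higher and 23 lower, so rises made up 72.9% of the called members against 54.8% as deposited. Over all genes the same scaling moved the share of rises among the called from 43.7% to 56.9%.

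The members with and without a KRAB domain are given apart. A KRAB A box was found in the coding sequence of 92 members. Of these 21 were higher (22.8%) and 5 lower (5.43%), with a median of 0.16. Of the 113 members without it, 13 were higher (11.5%) and 23 lower (20.4%), with a median of -0.00. Both resistant libraries lay above both parental ones for 42 KRAB members and below for 23; without KRAB the numbers were 38 and 40. Summed over the KRAB members, the values came to 31301 and 34330 in parental cells and to 36142 and 36715 in resistant cells. The sum over the members without KRAB was 128018 and 134455 against 123464 and 127564, and the groups overlapped in neither sum. As a share of the library total, the KRAB sum was 0.126% and 0.133% against 0.156% and 0.152%, and the other sum turned direction, with 0.516% and 0.520% against 0.533% and 0.527%. Scaled to library totals, 30 KRAB members were higher and 4 lower, and of the members without KRAB 32 were higher and 19 lower, so the excess of falls in the latter does not hold on that scale. Of 17 members with a SCAN domain, which pairs such proteins with each other, 2 were higher and 2 lower (11.8% each). The shares of all coding genes were 15.9% and 23.8%. The difference between the classes was not tested.

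**Figure D1:**
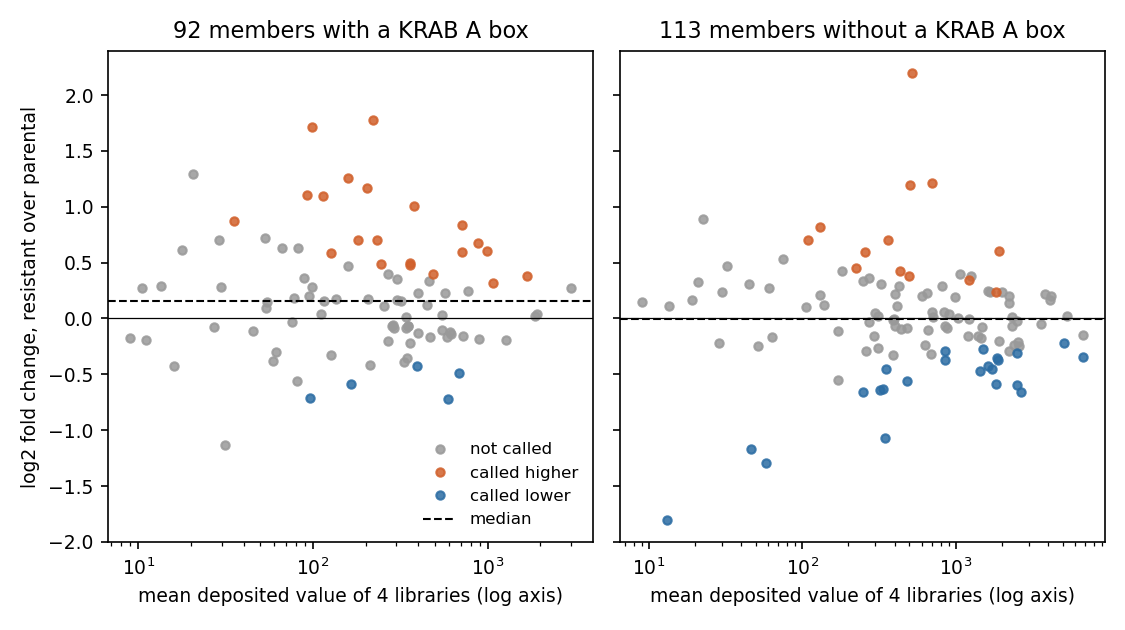
Log2 fold change of each member, resistant against parental cells, plotted against its mean deposited value on a log axis, with the 92 KRAB members and the 113 others in separate panels and called genes coloured. KRAB members lie at lower levels, and 12 of the 28 called falls are members without KRAB at a mean value of at least 1000.

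KRAB members had lower levels, with a median of the mean values of 261 against 631 for the others. Among coding genes with a mean value of at least 1000, 14.9% were higher and 35.5% lower; among those between 300 and 1000, 17.1% and 23.9%; between 100 and 300, 21.1% and 14.7%; and under 100, 12.8% and 6.42%. Set against genes of like level, 3 of 29 KRAB members under 100 were higher and 1 lower, 8 of 22 between 100 and 300 were higher and 1 lower, 8 of 35 between 300 and 1000 were higher and 3 lower, and 2 of 6 at 1000 or more were higher and none lower. Of the members without KRAB, none of 16 under 100 was higher and 3 were lower, among them ZNF648, which passed through parental libraries alone. Between 100 and 300, 4 of 17 such members were higher and 1 lower. Between 300 and 1000, 6 of their 38 were higher and 7 lower, and at 1000 or more 3 of 42 were higher and 12 lower. Members with at least 15 fingers counted 8 rises (28.6%) and 1 fall (3.57%) among 28. Those with 0 to 4 fingers counted 7 rises (14.9%) and 11 falls (23.4%) among 47, against 15.9% and 23.8% of all coding genes. The 8 rises with at least 15 fingers include the KRAB genes ZNF84 and ZNF268 of chromosome 12 and ZNF658, ZNF484 and ZNF189 of chromosome 9. The others are ZNF721 and ZNF12, also with KRAB, and ZNF16 without it. The part of the level, of KRAB and of the chromosome in these counts was not tested.

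Of the 21 rises of KRAB genes, 11 lay on chromosomes 9 and 12, a grouping made after the values were seen. The 13 KRAB members there included no fall and had a median of 0.61. On all other chromosomes 10 of 79 KRAB members were higher (12.7%) and 5 lower (6.33%), with a median of 0.04. Of all coding genes 15.9% were higher and 23.8% lower, so the share of rises there was not above that background. Without chromosomes 9 and 12 the whole set held 20 rises (10.9%) and 26 falls (14.1%) among 184 members. The KRAB counts by level given above include the genes of chromosomes 9 and 12.

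The chromosome 12 genes form 1 cluster of 7 KRAB genes within 296.5 kb at the end of the long arm (GRCh38 chr12:132918308-133214831). All 7 carry between 7 and 24 fingers, and 6 of the 7 rose. ZNF268, the cluster gene nearest the chromosome end, had values of 102 and 96.6 in parental cells and 371 and 315 in resistant cells, 3.43-fold higher (log2 1.78 ± 0.16 SE, adjusted p = 1.74e-04). ZNF10, also called KOX1, whose KRAB domain is the one widely used in engineered repressors, had 64.3 and 52.6 against 133 and 120 (2.15-fold, adjusted p = 4.49e-03). ZNF891, its head-to-head neighbour, had 247 and 255 against 488 and 527 (2.01-fold, adjusted p = 5.31e-04). In each of these genes the 2 groups lay well apart.

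The next genes inward changed less. ZNF84 had 724 and 850 against 1223 and 1170 (1.52-fold, adjusted p = 2.84e-03). ZNF26 had 285 and 314 against 413 and 430 (1.41-fold, adjusted p = 0.0144), and ZNF140, a repressor by the same domain, had 194 and 217 against 285 and 290 (1.40-fold, adjusted p = 0.0258). ZNF605, the innermost gene, had 30.1 and 25.8 against 29.4 and 23.8 (log2 -0.07 ± 0.31 SE, adjusted p = 0.876), and its libraries overlapped. The calls of the 2 weakest rises depended on single libraries. Without resistant replicate 1 the adjusted p was 0.0735 for ZNF26 and 0.125 for ZNF140, and without resistant replicate 2 it was 0.104 and 0.141. ZNF140 was also lost without parental replicate 1 (adjusted p = 0.0841). The end of ZNF140 overlaps that of ZNF891 on the opposite strand, ZNF10 and ZNF268 share a noncoding overlapping gene, and ZNF605 overlaps CHFR, so fragments there cannot be assigned with certainty.

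**Figure D2:**
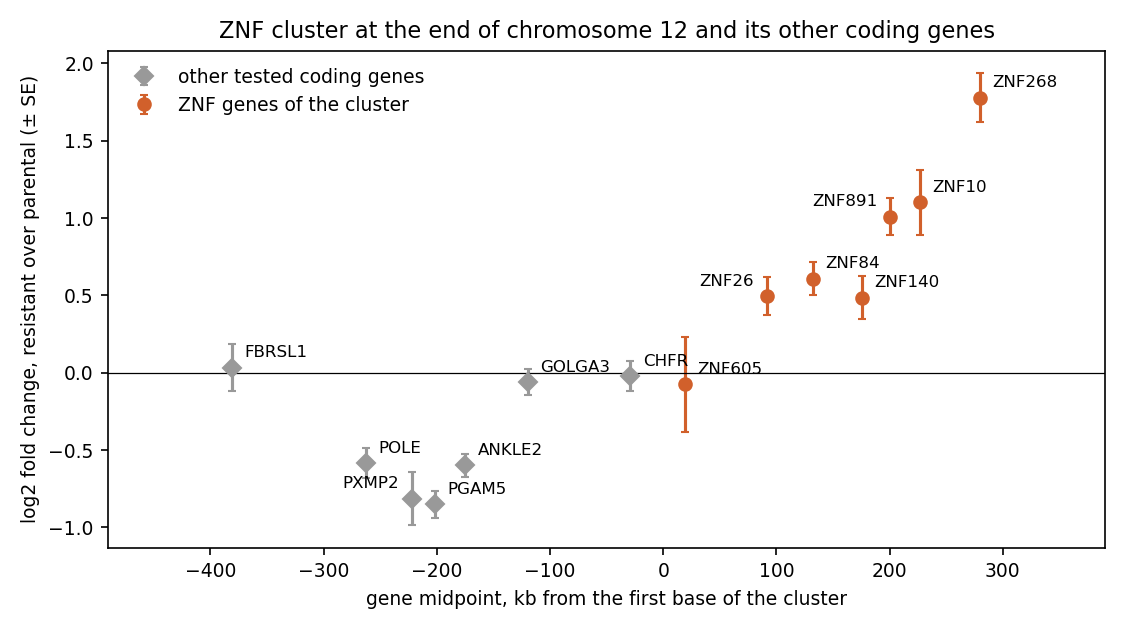
Log2 fold change with its standard error for the genes of the chromosome 12 cluster and the tested coding genes within 500 kb of it, by distance in kb from the start of the cluster. Of the 7 ZNF genes 6 lie above 0 and are called, whereas 4 of the 7 other coding genes are called lower.

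Genes beside the cluster did not share its rise. Of the 7 other coding genes tested within 500 kb, none was higher and 4 were lower, with a median of -0.58. The lower ones were PXMP2 (-0.81), ANKLE2 (-0.60), POLE (-0.58), the catalytic subunit of a replicative DNA polymerase, and PGAM5 (-0.85), a mitochondrial phosphatase. CHFR, GOLGA3 and FBRSL1 were at -0.02, -0.06 and 0.03. The summed value of the 7 cluster genes was 1646 and 1811 in parental cells and 2941 and 2875 in resistant cells.

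The sequences before the cluster's start sites were read because 6 neighbours moved the same way. The 250 bases before the RefSeq start (GRCh38.p14) of 168 members were searched on both strands for the word ACTACA, which the other strand shows as TGTAGT and which was chosen after these sequences had been read. The words CCAAT and then GGGCGG, copies of which can overlap, were searched likewise. The first word stood in 4 of the 7 cluster promoters, in 16.9% of 77 KRAB members, in 6.59% of 91 members without KRAB and in 7.73% of all 27305 promoters. Outside the cluster, from whose sequences the word was taken, it stood in 12.9% of 70 KRAB members, in 5 of 23 members that were higher and in 2 of 23 that were lower. The 30 bases around each copy follow 5′ to 3′ on the gene's own strand, with the word in capitals, to show the letters the copies have in common on its left.
ZNF605 (chr12:132956322-132956351, minus strand): ccccccgggaagTGTAGTtccagcgcgagc
ZNF26 (chr12:132986290-132986319, plus strand): gattgtgggagaTGTAGTttttccggcgcc
ZNF140, copy 1 (chr12:133080682-133080711, plus strand): ggctctgggaatTGTAGTtgtcgcaggccc
ZNF140, copy 2 (chr12:133080805-133080834, plus strand): gtttctgggaatTGTAGTttcttgaggccg
ZNF268 (chr12:133181436-133181465, plus strand): gcctctgggagtTGTAGTttttttgccttt

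The copies stand 27 bases before the start in ZNF605, 59 in ZNF26, 223 and 100 in ZNF140 and 41 in ZNF268. The exact word is not in the windows of ZNF84, ZNF891 and ZNF10, 3 genes that rose. It is in that of ZNF605, which was not called. Near matches were not searched for, and the ZNF891 window holds ctgggaaacgtagtt, with left-hand letters like those of the ZNF140 copies. ZNF605 had a low mean value (27.3), and the standard error of its log fold change was 0.31, against 0.12 for ZNF26. Whether ZNF605 and ZNF26 differ in response was not tested. Their complete windows are shown because both carry the word and only ZNF26 was called.
ZNF605 (chr12:132956307-132956556, minus strand): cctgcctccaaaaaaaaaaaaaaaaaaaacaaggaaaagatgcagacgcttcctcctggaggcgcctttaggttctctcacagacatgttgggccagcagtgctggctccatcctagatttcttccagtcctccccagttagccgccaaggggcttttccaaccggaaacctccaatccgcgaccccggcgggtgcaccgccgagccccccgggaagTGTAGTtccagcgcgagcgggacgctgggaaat
ZNF26 (chr12:132986117-132986366, plus strand): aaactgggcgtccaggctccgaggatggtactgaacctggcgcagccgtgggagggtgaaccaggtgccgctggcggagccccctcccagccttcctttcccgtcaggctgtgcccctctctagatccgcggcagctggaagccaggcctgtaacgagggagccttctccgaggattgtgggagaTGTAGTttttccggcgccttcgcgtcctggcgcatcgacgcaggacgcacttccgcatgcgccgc

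ZNF891 and ZNF10 point away from each other, and their starts are 102 bases apart in GENCODE and 353 in RefSeq, the annotation of the windows above. The 101 bases between the GENCODE starts (chr12:133130474-133130574, plus strand) are 73.3% G and C and hold 14 CG pairs; capitals mark GGGCGG and CCAAT.
ZNF891 to ZNF10: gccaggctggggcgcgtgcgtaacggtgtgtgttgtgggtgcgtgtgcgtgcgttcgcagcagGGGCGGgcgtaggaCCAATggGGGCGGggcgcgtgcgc

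GGGCGG stood in 64.3% of the 168 members' windows and in 42.3% of all promoters, and CCAAT in 42.3% and 33.1%. KRAB members had CCAAT in 51.9% of their windows and GGGCGG in 57.1%; members without KRAB had them in 34.1% and 70.3%. A match is a run of letters, not a bound site.

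A second head-to-head pair, on chromosome 2, also rose on both sides. ZNF514 and ZNF2, both KRAB genes, start 19 bases apart in the GENCODE annotation (chr2:95147330-95165413 and chr2:95165432-95184317). ZNF514 had 47.2 and 44.0 in parental cells against 160 and 144 in resistant cells (3.29-fold, adjusted p = 5.13e-04). ZNF2 had 144 and 132 against 242 and 209 (1.63-fold, adjusted p = 0.0103). Of 5 other coding genes within 500 kb none was higher and 2 were lower. This pair was chosen after its values were seen, and ZNF514 overlaps MRPS5 on the same strand.

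On chromosome 9, 6 of 10 members were higher and 1 lower, with a median of 0.54 against 0.01 for the other coding genes there. Of those other genes 23.3% were higher and 20.3% lower, against 15.9% and 23.8% of all coding genes. ZNF189 had 499 and 529 against 903 and 932 (1.78-fold, adjusted p = 5.08e-04), and ZNF658 had 69.1 and 75.5 against 157 and 155 (2.14-fold, adjusted p = 2.40e-03). ZNF510 (674 and 688 against 1114 and 1059) and ZNF782 (288 and 312 against 405 and 430) lie next to each other. ZNF510 was 1.59-fold higher (adjusted p = 9.69e-04) and ZNF782 1.39-fold (adjusted p = 0.0163). ZNF782 lost its call without either resistant library (adjusted p = 0.0736 and 0.125) and without parental replicate 1 (0.0504). The neighbours here rose too: 5 of 8 other coding genes within 500 kb were higher and none lower, with a median of 0.46. ZNF367, within the same stretch and without KRAB, fell.

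**Figure D3:**
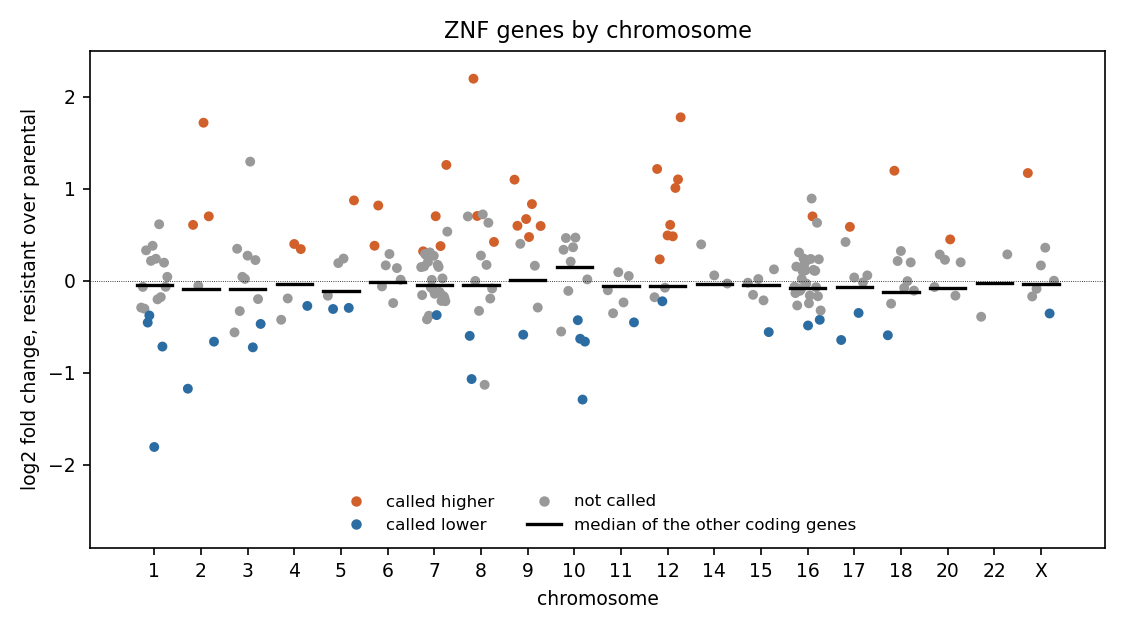
Log2 fold change of every member by chromosome, with a line at the median of the other tested coding genes of the same chromosome. The member medians of chromosomes 9 (0.54) and 12 (0.49), which are not drawn, stand apart from those of their other coding genes (0.01 and -0.06).

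Other neighbourhoods were mixed. The largest, 14 members within 1539 kb of chromosome 16 (chr16:30378106-31917357), held 1 rise, ZNF720 (162 and 191 against 286 and 287, 1.63-fold), and 1 fall, ZNF689 (790 and 810 against 547 and 597, 1.40-fold). Its median was 0.12, against -0.04 for 52 other coding genes around it. ZNF689 lost its call without resistant replicate 1 (adjusted p = 0.0697). The other 12 members of that stretch, among them ZNF48, ZNF771, ZNF747, ZNF764, ZNF688, ZNF785, ZNF629, ZNF668, ZNF646, ZNF843 and ZNF267, were not called. On chromosome 7, none of 7 neighbours around ZNF107 and ZNF92 was called, and 2 of 10 around ZNF777 were higher, ZNF282 and ZNF862. On chromosome 10 none of 12 members was higher and 4 were lower, while of the other coding genes there 32.1% were higher and 18.2% lower. Those other genes were taken from the whole chromosome, not from beside the members, and distal 10q was not set apart. Chromosome 1 held no rise and 4 falls among 17 members, where 14.7% of the other coding genes were higher and 22.8% lower. The 4 falls include ZNF648, which passed the minimum through the parental libraries alone.

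Outside the clusters the largest rise was that of ZNF704, a relative of ZNF395 with a single finger by the pattern used. It had 185 and 185 in parental cells and 776 and 931 in resistant cells, 4.58-fold higher (SE 0.13 on the log2 scale, adjusted p = 3.79e-05). ZNF395, which is linked to hypoxia and interferon-related transcription, moved the other way, from 2981 and 3101 to 2040 and 1978 (1.51-fold lower, adjusted p = 7.21e-04). The 2 relatives thus changed in opposite directions.

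ZNF862, a KRAB protein in which no classic finger was found, had 98.4 and 88.0 against 218 and 230 (2.39-fold, adjusted p = 8.34e-04). ZNF641 had 424 and 420 against 961 and 1001 (2.32-fold, adjusted p = 1.18e-04); its KRAB A box matched 7 of 12 positions, 1 short of the minimum, so it counts as a member without KRAB. ZNF397, a SCAN protein found at centromeres, had 313 and 300 against 725 and 684 (2.29-fold, adjusted p = 1.92e-04). It overlaps ZSCAN30 on the opposite strand, which was itself higher by 0.92. ZNF674, an X-linked KRAB gene, had 118 and 133 against 309 and 260 (2.25-fold, adjusted p = 1.05e-03). ZNF391 had 83.8 and 106 against 178 and 157 (1.76-fold, adjusted p = 0.0118) and lost its call without resistant replicate 1 (adjusted p = 0.0940).

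**Figure D4:**
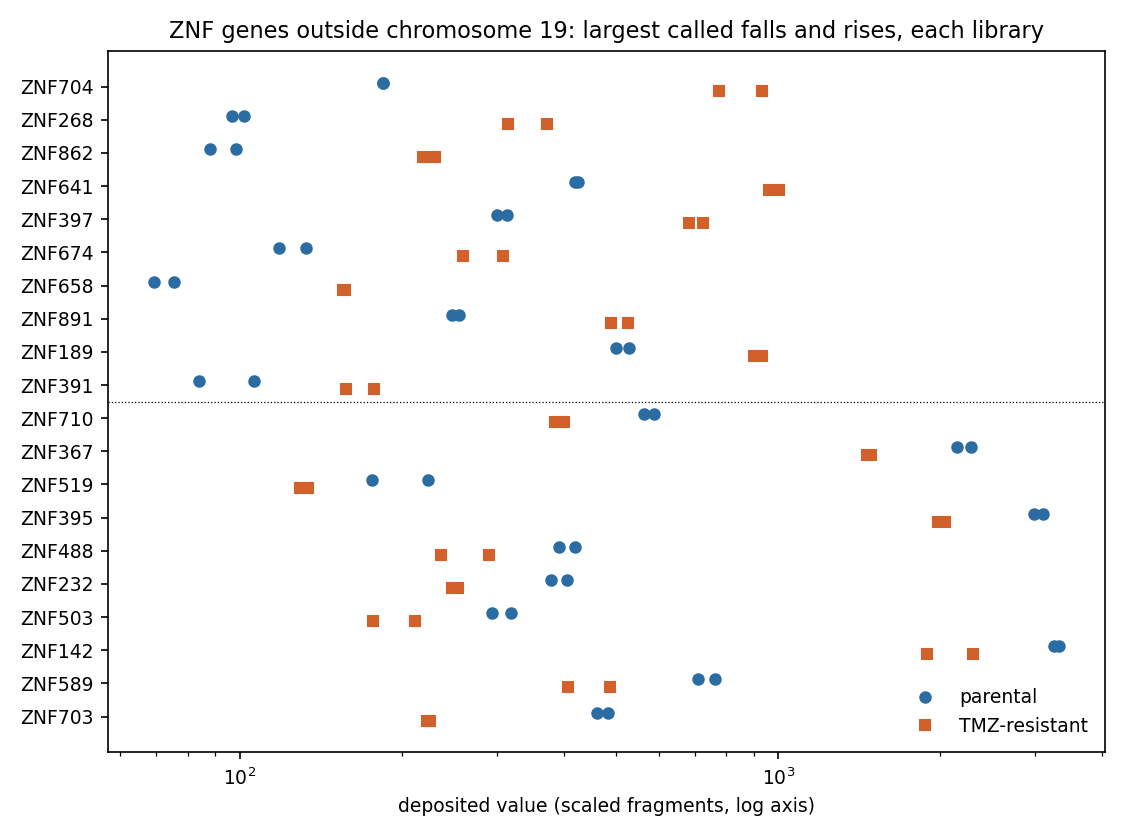
Deposited value in each library, on a log axis, for the 10 largest called rises and the 10 largest called falls among members with a mean value of at least 100. Only genes whose 2 parental and 2 resistant libraries did not overlap were taken for the 20. ZNF704 has the widest gap.

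Of the 28 falls, 23 were in genes without KRAB by the pattern used. Among them is ZNF202, whose best KRAB A box match was 7 of 12 positions, as in ZNF641. ZNF648, which passed the minimum through the parental libraries alone, is another of the 23. ZNF703, a transcriptional corepressor of the NET family that is amplified in some luminal breast cancers, had 460 and 482 against 226 and 223 (2.09-fold lower, log2 -1.07 ± 0.12 SE, adjusted p = 4.44e-04). Its relative ZNF503 fell with it, from 294 and 318 to 177 and 211 (1.58-fold, adjusted p = 9.61e-03), though not when resistant replicate 1 was left out (adjusted p = 0.0841); ZNF503-AS2 overlaps it. ZNF142, with 31 fingers, had 3329 and 3251 against 1886 and 2296 (1.58-fold, adjusted p = 1.75e-03). ZNF367, a regulator linked to cell cycle genes, had 2151 and 2280 against 1489 and 1464 (log2 -0.58 ± 0.08 SE, adjusted p = 9.88e-04). Both were abundant.

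Lower-level falls included the KRAB genes ZNF589 (761 and 708 against 486 and 407, 1.65-fold, adjusted p = 2.50e-03) and ZNF519 (176 and 224 against 134 and 129, 1.51-fold, adjusted p = 0.0303). ZNF232, a SCAN protein, had 406 and 379 against 248 and 254 (1.56-fold, adjusted p = 4.73e-03). ZNF488, an oligodendrocyte regulator, had 392 and 419 against 236 and 290 (1.55-fold, adjusted p = 9.41e-03). ZNF710 had 564 and 589 against 384 and 399 (1.47-fold, adjusted p = 4.85e-03). ZNF519 lost its call without either resistant library (adjusted p = 0.106 and 0.129) and without parental replicate 2 (0.141), and ZNF488 without resistant replicate 1 (0.0856).

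Sorted by role, the DNA-binding regulators were mostly not called. Of 18 listed, 17 were tested: 2 were higher (11.8%), 4 lower (23.5%) and 11 not called, with a median of -0.08, near the shares of all coding genes, 15.9% and 23.8%. The falls were ZNF367, ZNF395, ZNF202 and ZNF131, and the rises ZNF740 and ZNF322. ZNF202, a SCAN repressor of lipid genes, fell by 0.45 on the log2 scale (422 and 395 against 292 and 305, adjusted p = 0.0196), and ZNF322 rose by 0.38 (417 and 452 against 563 and 569, adjusted p = 0.0252). Both lost their calls without parental replicate 1 (adjusted p = 0.0665 and 0.0799), without resistant replicate 1 (0.128 and 0.132) and without resistant replicate 2 (0.0839 and 0.144). ZNF143, an activator of many promoters, ZNF263, ZNF148, ZNF281, ZNF384 and ZNF410 were among those not called.

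Of 9 developmental genes tested, 4 were lower and none higher, with a median of -0.25; among all coding genes 23.8% were lower and 15.9% higher. Besides ZNF703 and ZNF503 these were ZNF365, which is linked to genome stability, at 84.6 and 80.3 against 29.4 and 37.4 (2.44-fold lower, adjusted p = 4.67e-03), and ZNF513, a retinal regulator, at 56.9 and 71.7 against 23.3 and 33.1 (2.25-fold lower, adjusted p = 0.0144). ZNF513 lost its call without parental replicate 2 (adjusted p = 0.0601) or resistant replicate 1 (0.0959). ZNF462, ZNF292, ZNF521, ZNF423 and ZNF469 were not called, and in ZNF462 both resistant libraries (4265 and 4415) lay above both parental ones (3840 and 3902).

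Among 9 partners of chromatin and corepressor complexes 1 was higher (11.1%) and 2 were lower (22.2%), near the shares of all coding genes, 15.9% and 23.8%. ZNF512 had 1548 and 1482 against 2392 and 2231 (1.52-fold higher, adjusted p = 9.29e-04). ZNF644, a partner of the histone methyltransferases EHMT1 and EHMT2, fell by 0.38 (adjusted p = 0.0109), and ZNF827, a telomere and NuRD adaptor, by 0.27 (adjusted p = 0.0324). ZNF592 was at -0.21 (adjusted p = 0.0934). ZNF644 was lost without resistant replicate 2 (adjusted p = 0.0966), and ZNF827 when any 1 of the 4 libraries was left out (adjusted p from 0.0653 to 0.227).

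The list of RNA-binding, ribosome, ubiquitin and spindle proteins, 14 genes, held 2 rises (14.3%) and 4 falls (28.6%), with a median of -0.16, near the shares of all coding genes. ZNF207 (BUGZ), a spindle assembly factor, fell from 7431 and 7657 to 5741 and 6114 (1.27-fold, adjusted p = 6.30e-03), and ZNF326, which couples transcription and splicing, from 1942 and 2049 to 1361 and 1560 (1.37-fold, adjusted p = 6.47e-03). ZNF277, a partner of a ribosomal protein, rose from 250 and 303 to 483 and 417 (1.63-fold, adjusted p = 6.33e-03), and ZNF330 from 1038 and 1134 to 1377 and 1381 (1.27-fold, adjusted p = 0.0163). Without resistant replicate 1 the adjusted p was 0.0525 for ZNF207, 0.0648 for ZNF326, 0.0597 for ZNF277 and 0.0962 for ZNF330. ZNF330 was also lost without parental replicate 1 (0.0634) and resistant replicate 2 (0.0965). ZNF800 and ZNF346 were the other falls. In each role list, genes beyond the 4 with the smallest adjusted p were named after their values were seen.

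Divided by exon length, the most abundant members were ZNF622, a ribosome assembly factor, with a mean of 820 per kb, ZNF664 with 802, ZNF768 with 682 and ZNF217, a corepressor partner amplified in several cancers, with 681. The median member had 79.9 per kb. These 4 differed between the lines by at most 1.18-fold. ZNF664 fell by 0.22 on the log2 scale (adjusted p = 0.0448), a call lost when any 1 library was left out. The call was also lost with scaling to library totals or by TMM factors, and without the trend and robust moderation. Over all settings its log2 fold change ran from -0.26 to -0.13. ZNF768 (0.24, adjusted p = 0.0505) and ZNF217 (0.20, adjusted p = 0.0545) did not pass at the minimum used. Among genes with a mean of at least 50 both were called, and ZNF768 also among those with at least 10 in all 4 libraries. Scaled to library totals both were called higher (adjusted p = 6.22e-03 and 6.91e-03), and ZNF768 was also called without parental replicate 2 (adjusted p = 0.0455). ZNF275 and ZNF706 were the closest to no difference at a mean value of at least 500, with log2 fold changes of 0.00 ± 0.09 and -0.00 ± 0.10 (SE).

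At the low end, the members just inside the minimum were ZNF853 (10.6, 6.69, 10.5 and 8.49 in the order parental 1, 2 and resistant 1, 2), ZNF669 (12.2, 6.69, 12.05 and 5.10) and ZNF141 (10.6, 12.4, 14.3 and 6.79). Just outside it were ZNF35 (23.6, 7.65, 3.77 and 5.10), ZNF718 and ZNF366. ZNF648 entered through the parental libraries alone, with 17.1 and 24.9 against 4.52 and 5.94, so its being lower was built into the choice. Without parental replicate 2 or resistant replicate 1 its adjusted p was 0.0652 and 0.0659. ZNF197 (7.32 and 16.3 against 22.6 and 35.7, adjusted p = 0.0552) and ZNF251 (66.7 and 22.0 against 11.3 and 25.5, adjusted p = 0.176) differed by over 2-fold without passing the test.

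Among the genes of the proteins through which KRAB acts, more were lower than higher in RNA in the resistant line. Of 27 listed cofactors 24 were tested: 13 were lower (54.2%), 2 higher (8.33%) and 9 not called, with a median of -0.24. TRIM28, the corepressor that binds KRAB, had 8341 and 9328 against 6997 and 6804 (1.28-fold lower, adjusted p = 8.55e-03). The HP1 genes CBX5, CBX1 and CBX3 fell by 0.45, 0.41 and 0.52 on the log2 scale, SUV39H1 by 0.53 and DNMT1, the maintenance DNA methyltransferase, by 0.47. SUV39H2, a histone methyltransferase, had 1026 and 1007 against 618 and 611 (log2 -0.73 ± 0.09 SE, adjusted p = 6.97e-04).

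The widest falls were of UHRF1, which guides DNMT1 to replicated DNA, with 6983 and 8507 against 2184 and 2991 (3.01-fold lower, adjusted p = 8.29e-04), and of MPHOSPH8, a subunit of the HUSH silencing complex, with 1472 and 1487 against 725 and 746 (2.01-fold lower, adjusted p = 1.49e-04). The rises were SETDB1, the methyltransferase brought in by TRIM28, with 1036 and 1100 against 1438 and 1458 (adjusted p = 4.79e-03), and MORC2, which works with HUSH, with 1304 and 1347 against 1646 and 1746 (adjusted p = 0.0112). Most genes of the list lie above 1000, a range in which 35.5% of coding genes were lower. ATF7IP2 and DAXX were below the minimum and EHMT2 was listed at 0.

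**Figure D5:**
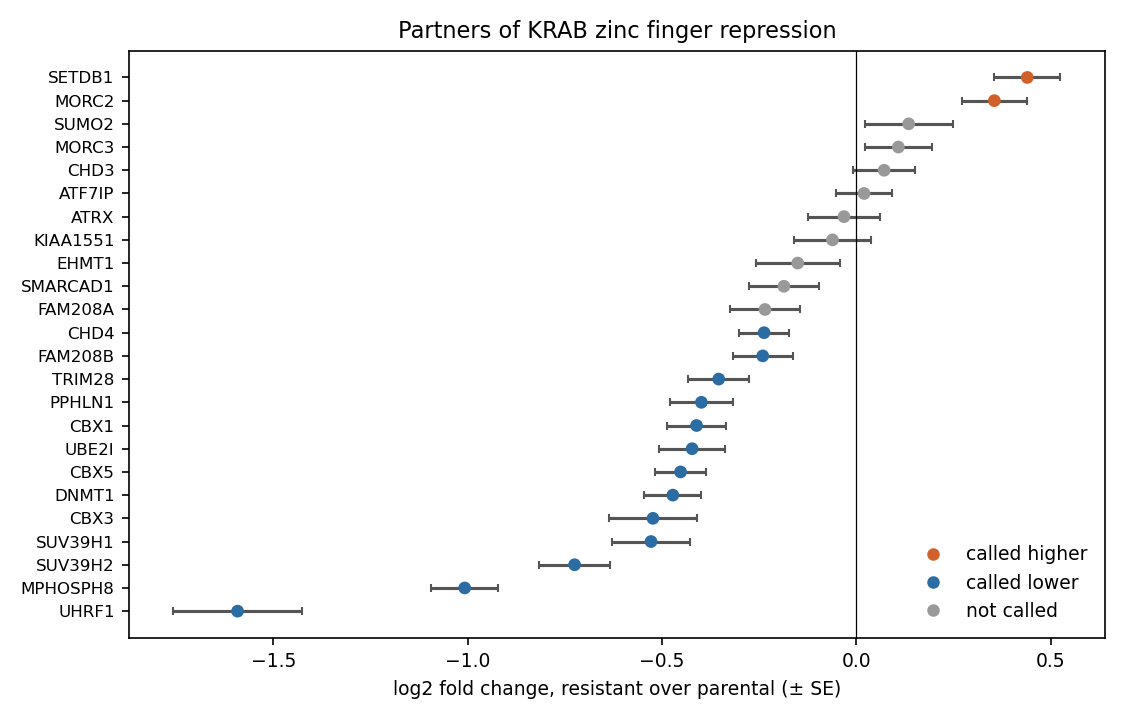
Log2 fold change with its standard error for the 24 tested KRAB cofactors, resistant against parental cells. SETDB1 and MORC2 lie to the right of 0 as called rises, and UHRF1 and MPHOSPH8 lie farthest to the left.

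Genes of the same kind elsewhere give the scale. Of 183 ZNF genes on chromosome 19 passing the same minimum, 79 were higher (43.2%) and 10 lower (5.46%), with a median of 0.37 and a median level of 140. Of 89 genes of other C2H2 families (ZBTB, ZSCAN, ZKSCAN, ZFP, KLF and SP), 22 were higher (24.7%) and 10 lower (11.2%). Their median was 0.13, and the shares of all coding genes were 15.9% and 23.8%. The difference between these sets and the 205 members was not tested.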

How the data were processed

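RNA was sequenced from 2 parental and 2 TMZ-resistant GBM8401 libraries made with a strand-specific kit, per the labels. Per the submitters' processing notes the authors' tools were, in no stated order, Cufflinks 2.2.1, Cuffdiff, HISAT2 2.1.0, Trimmomatic 0.36, bcl2fastq and SAMtools 1.2, and their build was GRCh38.p10. The settings, annotation release and strand of counting were not given in the sources used here. What the authors deposited is a signal, scaled fragment numbers for 58219 gene IDs, never negative and not divided by length. Each library is known only by this scaled total, so no counting interval is given.

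Genes with a value of at least 10 in at least 2 libraries (16132) were tested with limma 3.58.1 under R 4.3.3 on log2(value + 1), using trended and robust moderation and the group as the only term. Each test was two-sided, with Benjamini-Hochberg adjustment over all 16132 genes; an adjusted p under 0.05 is called. The added 1 shrinks the fold changes of low genes. The design had named a count test; because the values are scaled and not whole, limma took its place. The calling and direction of changes were tried on simulated whole counts, which are unlike these scaled values. The size of the estimated fold changes was not checked there.

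Chromosome, position, exon length and coding sequence came from GENCODE 29 (GRCh38), which held 57881 of the IDs; its release may differ from the authors'. KRAB A boxes (at least 8 of 12 positions), SCAN domains (at least 11 of 13) and fingers were found by pattern in translated coding sequence, so degenerate domains are missed. Clusters join members at most 500 kb apart. Promoters came from RefSeq. Paralogous ZNF genes share sequence, and how fragments shared between them were divided is not given.

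Named genes were the 10 largest called rises and falls at a mean value of at least 100 without overlap, the 4 most abundant per kb, up to 4 per role list by adjusted p, the 3 nearest to each side of the minimum, members that passed it in 1 group alone, the cluster members and the 2 steadiest; others are named to complete a count. The members and lists were chosen with earlier results of these data known.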

Additional observations from a re-analysis of the deposited data

How the results depend on the processing

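As deposited, 34 members were higher and 28 lower, with a median log2 fold change of 0.04, and 5991 of all genes were called. Scaling to library totals gave 62 higher members and a median of 0.14, and TMM factors 53 higher. Without the trend and robust moderation 16 members were lower and 3686 genes called. Leaving out 1 library gave 17 to 43 higher members, 12 to 25 lower, a median of 0.00 to 0.07 and 3528 to 5435 genes called. With the 21 members on chromosomes 9 and 12 left out, an alternative chosen after seeing the data, 20 were higher. With the replicate number as a block, 64 members were higher and 46 lower; the labels do not say what the numbers share, deviations of same-numbered libraries correlated at 0.265 across genes, and with 2 numbers this does not show a pairing. Over 66 single genes and 13 settings, 775 verdicts were kept, 52 calls were lost, 20 were gained and none changed direction; 40 genes kept their verdict in every setting. Pseudocounts of 0.5 and 5 and other filters on low values left all counts within 1.5 times. The planned edgeR and DESeq2 fits were not run, because the scaled values did not give whole fragments for enough genes. Low values rest on few fragments. Of 45 members with a mean value under 100, 3 were higher (6.67%) and 4 lower (8.89%), ZNF648 among the latter. Of all coding genes at that level 12.8% were higher and 6.42% lower.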
